A study of Mus musculus with 22 samples.

Results

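The clustered protocadherins of the mouse were examined in the anterior cingulate cortex (ACC), the frontal area in which this study activated an input from the amygdala. Members were all rows of the count table whose gene name begins with Pcdha, Pcdhb or Pcdhg and that reached at least 10 read counts in at least 10 of the 22 mice. Of 57 such rows among the 37786 genes of the table, 54 passed, namely 12 of the alpha, 21 of the beta and 21 of the gamma cluster. The rule used no difference between groups. The remaining 3 rows received few reads, with at most 6 counts in any mouse for Pcdha4, at most 8 for Pcdhb1 and at most 15 for a row named Pcdha11 (ENSMUSG00000102206), and they were not tested. Of their exonic bases, 404 (7.0%) in Pcdha4 and 1268 (16.8%) in this Pcdha11 are shared with no other gene, whereas all 2588 bases of Pcdhb1 are its own. A small unshared part did not always go with few reads. The tested member Pcdhga11, with 1256 unshared bases, took 136 to 402 counts per mouse. The cause of the low counts of the 3 rows was not tested. A second row named Pcdha11 (ENSMUSG00000007440) passed; its start lies 117 bases from that of Pcdha10 in RefSeq, so its name is uncertain. Of the gamma genes of the annotation, 1 was not analysed here.

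Clustered protocadherins are cadherin-like adhesion proteins of the cell surface, encoded by neighbouring genes in an alpha, a beta and a gamma cluster. In the alpha and gamma clusters each variable first exon has its own promoter and is spliced to constant exons that the whole cluster shares, whereas beta genes have a single coding exon. Most neurons choose a few of the variable promoters at random through CTCF and cohesin, while the C-type members are chosen in a more regular way, and the resulting combination lets neurites of the same cell recognise and avoid each other.

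All mice were male wildtype C57BL/6J, 8 weeks old when the procedures began, and housed singly after implantation. All of them, controls included, received AAV5-CaMKIIa-ChR2(H134R)-EYFP in the basolateral amygdala (BLA) on both sides, so that light could excite amygdala neurons with an active CaMKIIa promoter, and an optic fiber in the ACC on 1 side. The 10 stimulated mice (stim) received light for 20 min on 3 consecutive days in each of 3 weeks, 9 sessions in all, and the 12 control mice (ctrl) went through the same sessions with the light off. The ACC of both sides was dissected 48 h after the last session, so that each library held tissue of the fiber side and of the other side. The comparison addressed which transcripts of the ACC differ after repeated activation of its amygdala input.

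Libraries held 23090483 to 43668462 counted reads, with a median of 32560084, and the members together took 8385 to 23529 of them, which was 0.0304% to 0.0649%. The labels number the libraries in 2 series, each with controls before stimulated mice: library numbers 1 to 11 hold 6 controls and 4 stimulated mice, and 12 to 23 hold 6 of each. The study names 2 batches of animals without saying in the labels which mouse belonged to which, so the series are called earlier and later libraries here, and whether they are the batches was not tested. The later libraries gave fewer mitochondrial reads, with medians of 1.12% against 2.21%. The mean share of stimulated mice was 0.770 times that of controls in the earlier and 0.807 times in the later libraries, with overlapping ranges. Markers of glutamatergic neurons were high in every library (summed 3133 to 7794 CPM, which are counts scaled by library size), and those of oligodendrocytes, the myelin-forming glia, summed to 3183 to 19571 CPM in controls (median 5096) and to 2328 to 5783 CPM in stimulated mice (median 4069), with 7 of 7 lower at an unadjusted p under 0.05 and 0 past adjustment. That difference rested on 2 later libraries, control 9 at 19571 and control 11 at 14403 CPM, while the other 10 controls read 3183 to 6255 CPM. Without these 2, 0 of 7 markers had an unadjusted p under 0.05 (median log2 fold change -0.15 in place of -0.73), and in the earlier libraries alone 0 of 7 did. In bulk tissue, fewer cells of a type and less RNA per cell cannot be told apart.

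The 3 clusters lie on the plus strand of chromosome 18 in GRCm38, at chr18:36930184-37187661 for alpha, chr18:37264938-37524479 for beta and chr18:37661793-37841873 for gamma. Because alpha and gamma members share their constant exons, reads from those exons cannot be given to a single gene, and a level could be read only from the bases that no other gene of the annotation shares. The members tested had 1886 to 3028 such bases in the alpha, 1107 to 8695 in the beta and 1256 to 4614 in the gamma cluster. Levels were therefore compared between genes as CPM per kilobase of unshared exon. In alpha and gamma members these bases are only a part of the transcript, while in most beta members they are the whole single exon. Uneven coverage along transcripts could thus shift alpha and gamma against beta, which was not tested. Exons of 10 of the 54 members overlap a gene on the minus strand, by 399 to 1927 bases, so their counts are uncertain where strand was not used. The overlap is with Gm37446 for Pcdhb12 (1927 bases), with BC037039 for Pcdhgc3 (1559), and with Gm26672 for Pcdhga11 (1381, beside only 1256 unshared bases), Pcdhgb7 (771) and Pcdhga12 (422). Smaller overlaps touch Pcdhga7 (536), Pcdha12 (531), Pcdhga8 (416), Pcdhga1 (406) and Pcdha6 (399).

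Of the 5 C-type members, 3 led the order of levels. Pcdhgc5, the last variable exon of the gamma cluster, stood at 22.9 ± 7.86 CPM per kb (SD, n = 22), Pcdhac2, the last of the alpha cluster, at 16.2 ± 6.14, and Pcdhgc3, the first C-type of the gamma cluster, at 9.67 ± 4.25. The other C-type members, Pcdhgc4 and Pcdhac1, stood at 4.62 ± 1.36 and 1.61 ± 0.768 CPM per kb. The 5 members with the highest level, Pcdhgc5, Pcdhac2, Pcdhgc3, Pcdhga11 and Pcdhga7, made up 38.6% of the summed level of all 54, and the levels of Pcdhgc3, Pcdhga11 and Pcdhga7 carry the limit on strand. Among beta genes Pcdhb9 was highest at 5.44 ± 0.955 and Pcdhb18 lowest at 0.364 ± 0.113 CPM per kb. The lowest of the other clusters were Pcdha8 at 0.353 ± 0.150 and Pcdhgb8, annotated as a polymorphic pseudogene, at 0.459 ± 0.236 CPM per kb. Within a cluster the highest level was 45.9 times the lowest for alpha, 14.9 times for beta and 49.9 times for gamma. Of 53 neighbouring pairs in the order of all members, 52 differed by less than the larger SD of the pair; the exception was the step from Pcdhac2 to Pcdhgc3. The order was nearly the same in earlier and later libraries (Spearman's rho = 0.950 across the 54 genes and 0.918 across the 21 beta genes, which are not independent replicates).

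**Figure D1:**
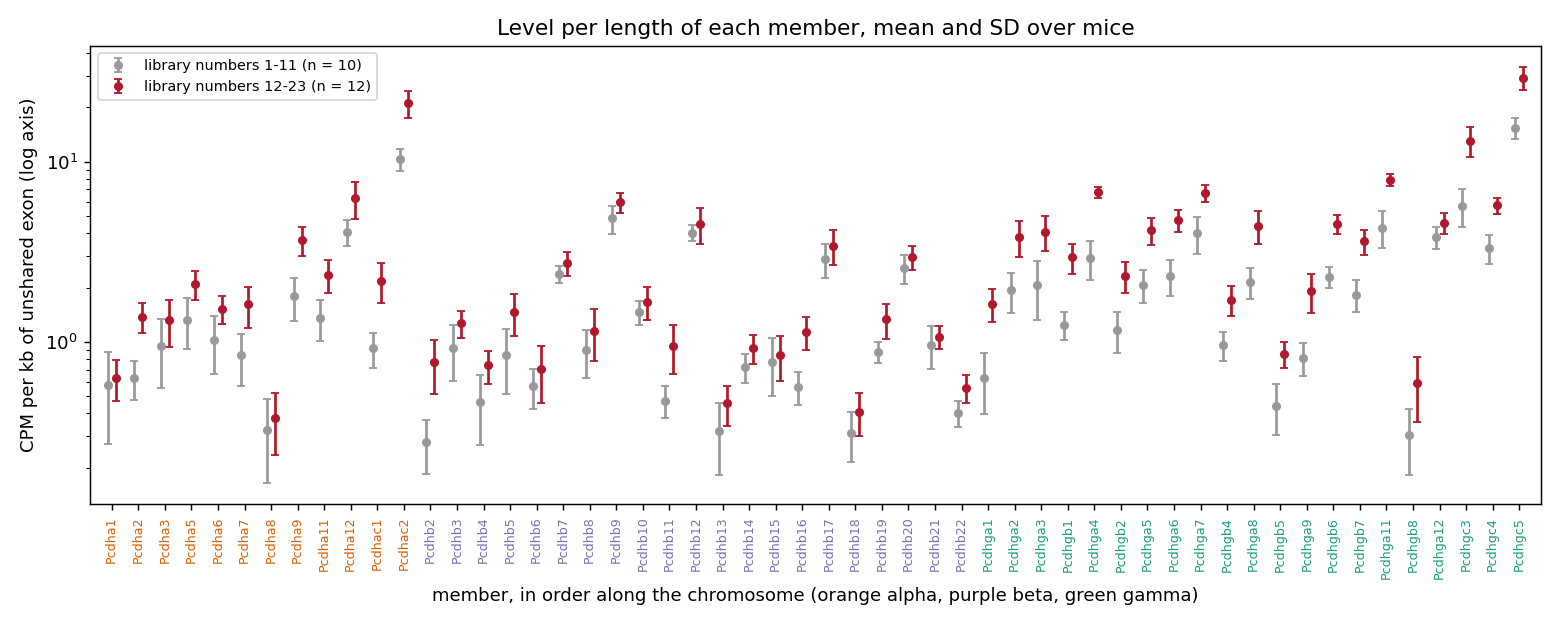
Level per length of the 54 members in chromosome order, as CPM per kb of unshared exon on a log axis, with points for the mean and bars for the SD over the 10 earlier (grey) and 12 later (red) libraries. Pcdhac2 and Pcdhgc5 stand above the other members in both series, and the mean of every member is higher in the later libraries.

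With repeated stimulation of the amygdala input, no member differed from controls past the threshold. By edgeR's quasi-likelihood test with group as the only term, 0 of 54 members had an unadjusted p under 0.05, where 3.61% of the 17524 genes tested did. The smallest unadjusted p was 0.0606, for Pcdhb8. No member passed adjustment over all genes, and 0 of the 17524 genes did (smallest adjusted p = 0.436 in edgeR). DESeq2's Wald test gave 0 members as well, beside 4.18% of all genes, and limma voom with sample quality weights gave 2, Pcdha6 and Pcdha9, which is 3.70% beside 10.6% of all genes, with neither past adjustment. The log2 fold changes (stimulated over control) ran from -0.37 to 0.32 with a median of 0.06, beside a median of 0.01 over all genes, and 46 of 54 were smaller than their own standard error. Estimates were positive for 38 members and negative for 16. All 12 alpha members were among the positive ones (median 0.17), but with the series of libraries as a covariate 8 of 12 were positive, in the earlier libraries alone 5 of 12, and in the later libraries alone 9 of 12.

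Summed over its members, the alpha cluster stood at 47.3 to 143 CPM in controls, with a median of 85.8, and at 55.8 to 144 CPM in stimulated mice, with a median of 102. The groups overlapped over nearly their whole range. The stimulated mean was 1.12 times that of controls, but 0.996 times within the earlier and 1.08 times within the later libraries; 6 of 12 controls and 4 of 10 stimulated mice are earlier libraries. The beta cluster ranged from 88.9 to 155 CPM in controls (median 109) and from 84.7 to 151 CPM in stimulated mice (median 113), a ratio of means of 1.01. The gamma cluster ranged from 156 to 389 CPM in controls (median 252) and from 168 to 367 CPM in stimulated mice (median 324), with a ratio of 1.07 over all mice, 0.959 within the earlier and 1.03 within the later libraries.

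**Figure D2:**
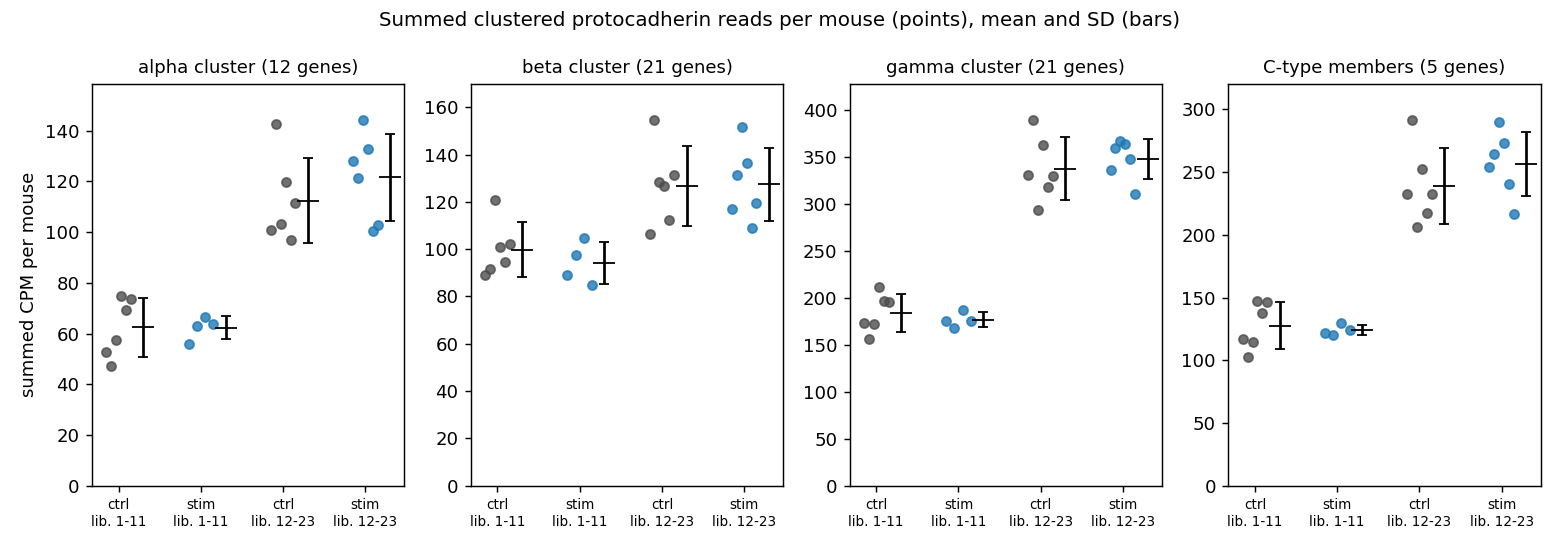
Summed CPM per mouse of the alpha, beta, gamma and C-type members, with 1 point per mouse, split by group (grey control, blue stimulated) and by series of library numbers, and bars for mean and SD. Control and stimulated mice overlap within each series, while the earlier and later libraries stand apart for alpha, gamma and the C-type members.

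The 5 C-type members summed to 102 to 291 CPM in controls, with a median of 177, and to 120 to 290 CPM in stimulated mice, with a median of 229. The stimulated mean was 1.11 times that of controls over all mice, 0.971 times within the earlier and 1.07 times within the later libraries. None of them passed edgeR's test for group. Pcdhgc5 stood at 55.2 to 162 CPM in controls (median 93.8) and at 65.0 to 161 CPM in stimulated mice (median 126). The groups overlapped, and its log2 fold change was 0.18 with a standard error (SE) of 0.20. With the series as a covariate it was 0.07 (SE 0.09). Pcdhac2, with 25.1 to 78.5 CPM in controls (median 45.3) and 26.8 to 83.9 CPM in stimulated mice (median 51.7), gave 0.17 (SE 0.22) and, with the covariate, 0.06 (SE 0.09). Pcdhac1 and Pcdhgc4, which were lower in level, had estimates of 0.17 (SE 0.29) and 0.16 (SE 0.18), and with the covariate 0.03 (SE 0.15) and 0.09 (SE 0.09). Pcdhgc4 is the member whose loss alone is known to reduce the survival of interneurons.

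The other members named by their p are ordinary cluster variants, used stochastically by single neurons. In the alpha cluster the smallest p belonged to Pcdha9, with 2.64 to 9.45 CPM in controls (median 6.18) and 3.21 to 11.5 CPM in stimulated mice (median 8.36). The groups overlapped (log2 fold change 0.32, SE 0.24, unadjusted p = 0.192 in edgeR). Pcdha6 (0.24, SE 0.20) and Pcdha8 (0.27, SE 0.28) followed, and Pcdha8 rested on a median of 24.5 counts per mouse. In the beta cluster Pcdhb12 gave 0.17 (SE 0.12), and the most abundant beta gene, Pcdhb9, gave 0.06 (SE 0.11). In the gamma cluster Pcdhga7 gave 0.21 (SE 0.18).

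The groups are split unequally between the series, so the fit was repeated with the series as a covariate. Then 4 of 54 members, 7.41%, had an unadjusted p under 0.05, where 11.5% of all genes did. All 4 were lower in stimulated mice, as were 5.45% of all genes at that p. None passed adjustment over all genes, the smallest adjusted p of a member being 0.353 and that of any gene 0.241. Estimates were then positive for 22 members and negative for 32.

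Those 4 members were a pair of beta genes, an A-type gamma member and a C-type member. Pcdhb8, a beta member, stood at 2.34 to 7.35 CPM in controls (median 4.01) and at 1.86 to 4.01 CPM in stimulated mice (median 3.18). No stimulated mouse read above the control median, and the lower parts of both ranges overlapped. With the covariate its log2 fold change was -0.42 (SE 0.16, unadjusted p = 0.0168, adjusted p = 0.360 in edgeR). Within the earlier libraries its 4 stimulated mice read 1.86, 2.93, 3.18 and 1.88 CPM beside controls of 2.48 to 4.52, and within the later ones the stimulated mice read 3.18 to 4.01 beside controls of 2.34 to 7.35. The estimate was negative in each series, -0.52 (SE 0.24) and -0.36 (SE 0.22).

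Pcdhb18, the beta member with the lowest level per length, read 1.22 to 2.81 CPM in controls (median 2.02) and 0.714 to 2.22 CPM in stimulated mice (median 1.69), with a median of 58.5 counts per mouse. The groups overlapped, and the estimate with the covariate was -0.41 (SE 0.17, unadjusted p = 0.0267, adjusted p = 0.383 in edgeR). Pcdhga12, the last A-type gamma member, read 12.9 to 24.1 CPM in controls (median 18.2) and 13.4 to 20.0 CPM in stimulated mice (median 16.3). Its estimate was smaller in size, -0.21, but had the smallest error (SE 0.08, unadjusted p = 0.0128, adjusted p = 0.353 in edgeR), and it was -0.22 in each series. Pcdhgc3 read 8.72 to 32.9 CPM in controls (median 17.8) and 7.63 to 30.1 CPM in stimulated mice (median 18.3). Its ranges overlapped almost wholly, and its estimate moved from -0.11 (SE 0.27) with group only to -0.24 (SE 0.11, unadjusted p = 0.0450, adjusted p = 0.423 in edgeR) with the covariate.

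Controls 9 and 11, both later libraries, had the highest oligodendrocyte marker sums. They held the highest control value of Pcdhb8 (7.35 CPM in control 9) and of Pcdhgc3 (32.9 CPM in control 11). The 2 highest control values of Pcdhb18 were theirs as well (2.81 CPM in control 9 and 2.79 CPM in control 11). Without these 2 mice and with the covariate, 1 of 54 members stayed at an unadjusted p under 0.05, beside 7.73% of all genes, namely Pcdhga12 at -0.24 (p = 0.00531, adjusted p = 0.627 in edgeR), while Pcdhb8 gave -0.33 (p = 0.0511), Pcdhb18 -0.34 (p = 0.0768) and Pcdhgc3 -0.21 (p = 0.0828). The directions did not change. The part of myelin-forming cells in these estimates was not tested further.

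**Figure D3:**
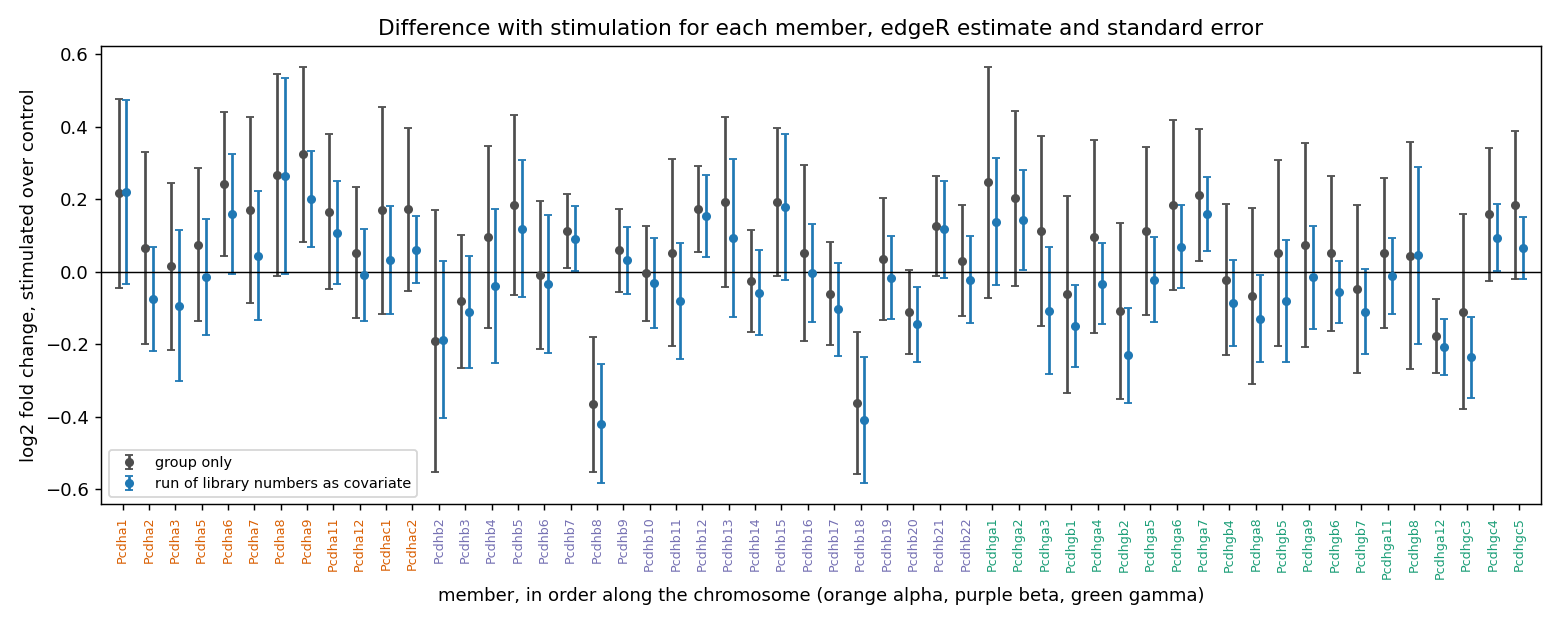
Log2 fold change of stimulated over control mice for the 54 members in chromosome order, with the edgeR estimate as a point and its standard error as a bar, from the fit with group only (grey) and with the series of libraries as a covariate (blue). Most bars cross 0, and Pcdhb8 and Pcdhb18 have the lowest estimates in both fits.

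Within the earlier libraries, 2 of 54 members had an unadjusted p under 0.05, Pcdhga3 and Pcdhb8, both lower in stimulated mice, beside 5.56% of all genes. Within the later libraries 0 of 54 did, beside 12.4% of all genes. The difference between the series in the effect of stimulation had an unadjusted p under 0.05 for 2 of 54 members, beside 8.01% of all genes. No member passed adjustment (smallest adjusted p = 0.558 in edgeR), and of all genes 0 did (smallest adjusted p = 0.518 in edgeR). For Pcdhga3, an A-type gamma member, the 4 stimulated mice of the earlier libraries read 2.60, 3.21, 6.21 and 4.31 CPM beside controls of 4.18 to 8.05, and those of the later libraries read 7.84 to 14.1 CPM beside controls of 6.66 to 12.1. Stimulated mice thus lay toward the low end in the earlier and toward the high end in the later series. The log2 fold changes from a separate fit of each series were -0.60 (SE 0.26) and 0.24 (SE 0.16). The joint fit of all mice with the interaction estimated the difference at 0.89 (SE 0.31, unadjusted p = 0.00842 in edgeR). For Pcdha3 the separate fits gave -0.55 (SE 0.32) and 0.23 (SE 0.21), and the joint fit gave a difference of 0.83 (SE 0.39, unadjusted p = 0.0422 in edgeR).

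The series of libraries, not the treatment, went with the clearest difference among the members. All 54 were higher in the later libraries, and 43 passed an adjusted p under 0.05 in edgeR's test with group as the other term. Of all genes, 68.1% passed in either direction and 33.7% passed as higher. The calls were 10 of 12 alpha, 12 of 21 beta and 21 of 21 gamma members. The median log2 fold change was 0.78 over the members, 0.72 for alpha, 0.42 for beta, 0.99 for gamma and 1.02 for the C-type members, beside -0.03 over all genes. For 17 members every later library read above every earlier one, 4 alpha and 13 gamma, which 13.9% of all genes did, and 0 of the 21 beta members did. All 5 C-type members were among them. Other genes moved with the series too. Of the 11 protocadherins outside the clusters, 9 passed as higher and 0 as lower in the later libraries, with a median log2 fold change of 0.60. Among glutamatergic markers, Camk2a (1.22 on the log2 scale), Slc17a7 (0.96) and Tbr1 (0.36) passed as higher in the later libraries and Nrgn (-0.54) as lower, while Neurod6 (-0.28) did not pass. The sum of the glutamatergic list had a median of 3384 CPM in the earlier and 6759 CPM in the later libraries. Markers that passed as higher were 4 of 6 for astrocytes, 5 of 6 for endothelial cells (with 1 lower), 3 of 4 for fibroblasts, 2 of 6 for microglia (with 2 lower), 1 of 3 for choroid plexus, 0 of 7 for oligodendrocytes and 2 of 2 for oligodendrocyte precursors (Pdgfra, Cspg4), whose sum had medians of 37.2 and 99.98 CPM. GABAergic markers went both ways. Of 6, Slc32a1 (0.60 on the log2 scale) and Gad2 (0.34) passed as higher in the later libraries and Sst (-1.04) and Vip (-0.37) as lower, while Gad1 (0.25) and Pvalb (-0.43) did not pass. Their part in the difference of the members was not tested.

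Pcdhgc3 read 7.63 to 15.4 CPM in the earlier and 17.9 to 32.9 CPM in the later libraries, with no overlap. Its fold was 2.34 (95% interval 2.01 to 2.74, from the SE). For Pcdhgc5 the ranges were 55.2 to 84.7 and 103 to 162 CPM, a fold of 1.89 (1.68 to 2.13), and for Pcdhac2 25.1 to 37.1 and 51.0 to 83.9 CPM, a fold of 2.03 (1.78 to 2.31). Both again showed no overlap between the series. The largest fold of the alpha cluster was that of Pcdhac1, at 1.68 to 3.28 and 3.52 to 8.55 CPM (2.36, 1.92 to 2.91). In the gamma cluster it was that of Pcdhga1, at 0.668 to 3.06 and 3.14 to 6.37 CPM (2.55, 1.99 to 3.26). In the beta cluster Pcdhb2 led, at 0.362 to 1.23 and 0.832 to 3.21 CPM with some overlap (2.76, 2.04 to 3.73). At the other end, Pcdhb15 and Pcdha1 had log2 fold changes of 0.10 (SE 0.20) and 0.13 (SE 0.26) and did not pass. Pcdhga12 had the smallest difference of the gamma cluster, 0.29 on the log2 scale (SE 0.08).

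The make-up of the family moved with the series as well. Beta genes gave 26.1% to 34.5% of the members' CPM in the earlier libraries, with a median of 28.0%, and 19.5% to 24.4% in the later ones, with a median of 21.5%. These ranges did not overlap. The gamma share was 49.1% to 55.0% (median 53.5%) in the earlier and 55.4% to 62.4% (median 58.1%) in the later libraries, and the alpha share was 16.0% to 19.8% (median 18.9%) and 18.0% to 22.0% (median 19.6%). Within each series, the ratio of the stimulated to the control mean of the beta share was 0.974 and 0.972. The series difference also held inside each group: the summed CPM of all members in later libraries was 1.66 times that of earlier ones in controls and 1.79 times in stimulated mice.

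Across all genes, the difference between the series followed transcript length. In 5 classes of equal size by exonic length, the median log2 fold change (later over earlier) went from -0.70 in the shortest, through -0.26, 0.06 and 0.34, to 0.47 in the longest. Of the members, 0 fell in the shortest class, 5 in the second, 21 in the third, 25 in the fourth and 3 in the longest. The 10 gamma members of the third class had a median of 0.996 and the 10 of the fourth class 0.991, and the 12 alpha members, all of the fourth class, had 0.72. The 11 beta members of the third class had a median of 0.42. Above the median of their own length class lay 20 of 21 gamma, 20 of 21 beta and 10 of 12 alpha members. The parts of transcript length and of the mitochondrial share in the difference between the series were not tested.

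**Figure D4:**
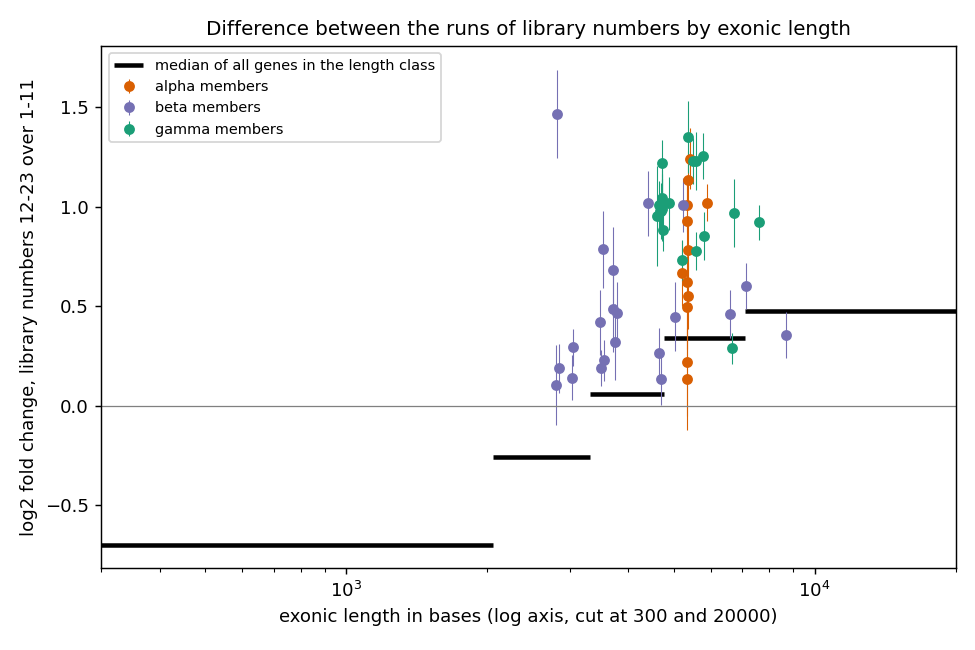
Log2 fold change of later (12-23) over earlier (1-11) libraries against exonic length in bases on a log axis, with 1 point per member (alpha orange, beta purple, gamma green), thin bars for the standard error, and black lines for the median of all genes in 5 length classes. Most members lie above the line of their class, and gamma members are mostly near 1.

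Variation between mice was set beside that of other genes of like level. With group and series in the model, the biological coefficient of variation (edgeR) had a median of 0.210 over the members, from 0.126 for Pcdhga12 to 0.400 for Pcdha8, and of 0.167 over all genes. Among genes of the same level class the medians were 0.346 for members and 0.357 for all genes below a mean log2 CPM of 1, 0.256 and 0.244 from 1 to 2, 0.191 and 0.197 from 2 to 3, 0.165 and 0.159 from 3 to 4, and 0.146 and 0.126 above 4, where 4 members lay. Among clusters it was 0.241 for alpha, 0.210 for beta and 0.182 for gamma members.

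Once the means of group and series were removed, members moved little together from mouse to mouse. The median Pearson's r over the 1431 pairs of members was 0.12 across 22 mice, 0.21 for the 51 pairs of neighbours within a cluster and 0.15 for the other 435 pairs within a cluster. These values share libraries and depth, and most members have few counts. The highest pairs were Pcdhac2 with Pcdhgc5 (0.86), Pcdha12 with Pcdhgc5 (0.83), Pcdhga3 with Pcdhgc5 (0.78), Pcdhb13 with Pcdhb15 (0.77) and Pcdhga7 with Pcdhga11 (0.75), so that pairs within and between clusters were among them. Of the 54 members, Pcdhgc3 had the lowest median r with the others, -0.33, and its r was negative with 47 of 53. The lowest pair of all was Pcdhga2 with Pcdhgc3, at -0.84.

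The 10 pairs of C-type members are given as a description of these 22 mice, with no test, since their values had been seen. Of the 6 pairs among Pcdhac1, Pcdhac2, Pcdhgc4 and Pcdhgc5 all were positive, and of the 4 pairs with Pcdhgc3 all were negative. Pcdhac2 with Pcdhgc5 had the highest r, 0.861 (rho = 0.883), with 0.868 once 2 mice were left out (for each pair, those farthest from the median of the first member named), 0.881 in the 10 earlier and 0.848 in the 12 later libraries. The other positive pairs had a lower r over the 22 mice. Pcdhac2 with Pcdhgc4 gave 0.631 (rho = 0.651), with 0.837 in the earlier and 0.463 in the later libraries. Pcdhgc4 with Pcdhgc5 gave 0.586 (rho = 0.483), but 0.942 in the earlier and 0.138 in the later libraries, and 0.372 without controls 2 and 4. Pcdhac1 gave 0.440 with Pcdhac2, 0.555 with Pcdhgc5 and 0.289 with Pcdhgc4. Without controls 8 and 11, the mice most distant in Pcdhac1, these were 0.292, 0.360 and 0.290.

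Pcdhac2 ran against Pcdhgc3 with r at -0.780 (rho = -0.828), -0.786 without stimulated mice 9 and 10, -0.806 in the earlier and -0.777 in the later libraries. Pcdhgc3 against Pcdhgc5 gave -0.637 (rho = -0.721), with -0.639 and -0.643 in the series, and Pcdhgc3 against Pcdhac1 gave -0.567 (rho = -0.694), with -0.650 and -0.507. Against Pcdhgc4 Pcdhgc3 gave -0.482 (rho = -0.642), with -0.621 in the earlier and -0.256 in the later libraries. The sign was thus the same in each series for all 4 pairs.

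Markers of several cell types moved with these members, again with group and series means removed and with no test. Pcdhgc3 was positively related to 5 of the 6 marker lists. Its r was 0.841 with astrocyte markers (Aqp4, Gfap, Aldh1l1, Slc1a2, Slc1a3, Gja1), 0.781 with microglial, 0.716 with endothelial, 0.633 with glutamatergic and 0.489 with oligodendrocyte markers, and -0.755 with GABAergic ones. Pcdhac2 had the opposite sign throughout, at -0.859, -0.764, -0.607, -0.412, -0.670 and 0.643 in the same order of lists. Pcdhgc5 was most strongly related to oligodendrocyte markers, at -0.815, beside -0.712 with astrocyte markers. Pcdhgc4 gave -0.737 and Pcdhac1 -0.518 with astrocyte markers. The relation to astrocyte markers kept its sign in both series, with 0.854 and 0.824 for Pcdhgc3 and -0.925 and -0.825 for Pcdhac2, and without controls 1 and 2, the most distant in these markers, it was 0.800 and -0.855. The lists share libraries and depth. The labels give no RNA integrity, so the mitochondrial share of reads could not be set beside it. That share moved with the same members. On the log2 scale and with the same means removed, its r was 0.713 with Pcdhgc3, -0.735 with Pcdhac2, -0.686 with Pcdhgc5, -0.798 with Pcdhgc4 and -0.608 with Pcdhac1. The signs were the same in both series, and without controls 1 and 2 the values were 0.632, -0.698, -0.587, -0.720 and -0.599. Its part in these relations and in the estimates for stimulation was not tested. With stimulation, all 6 astrocyte markers had negative estimates (median -0.17 with the series as a covariate) and 0 of 6 had an unadjusted p under 0.05. The makeup of the dissected tissue and the level per cell cannot be told apart here.

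**Figure D5:**
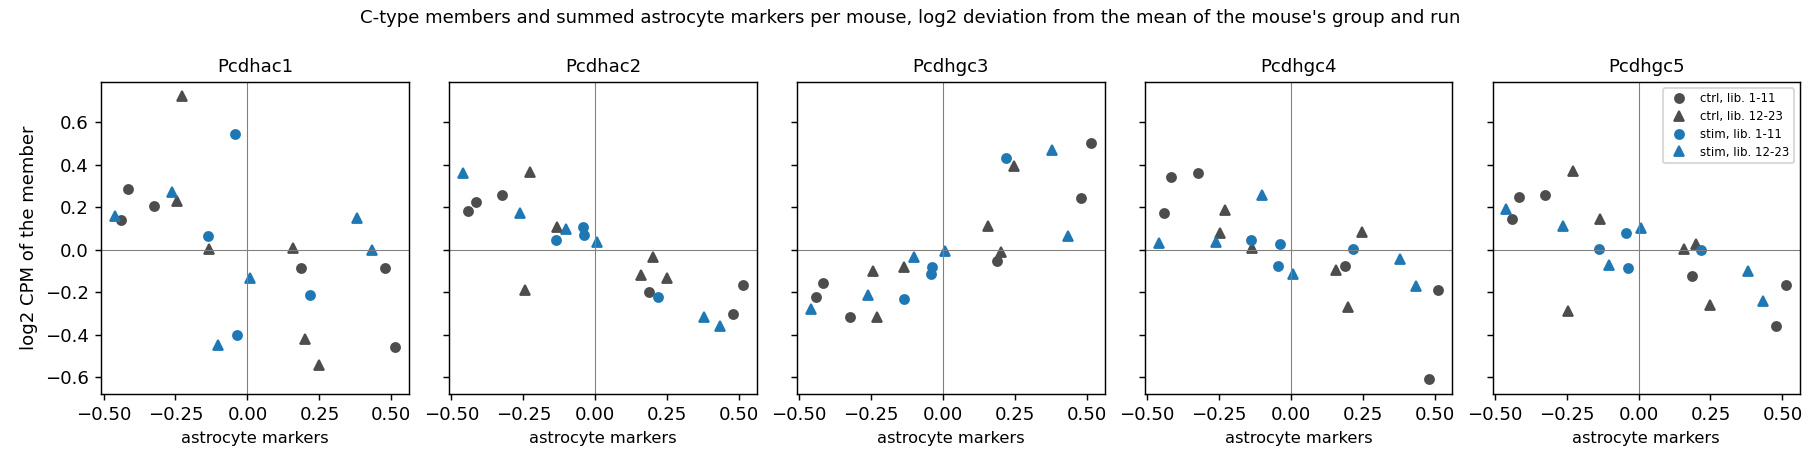
The 5 C-type members against the summed astrocyte markers, 1 of 6 marker lists, both as log2 deviation from the mean of the mouse's group and series, with 1 point per mouse (grey control, blue stimulated; circles earlier, triangles later libraries). Pcdhgc3 rises from left to right (r = 0.841), and Pcdhac2 falls (r = -0.859).

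Genes that act on or with the clustered protocadherins were read from 5 lists, and none of the 61 genes tested in them passed adjustment in either fit. Of all 17524 genes, 0 passed in either fit. Among 12 genes of CTCF and cohesin, which bring promoters and enhancers of the clusters together, 0 had an unadjusted p under 0.05 with group only, and 1 did with the series as a covariate, the cohesin subunit Stag1 (-0.18, SE 0.08). Among 10 genes of DNA methylation and chromatin silencing, Trim28, a corepressor, was higher in both fits (0.16, SE 0.07 and 0.17, SE 0.06), and Ehmt1, a histone H3 methyltransferase, with the covariate only (0.15, SE 0.07). Among 21 partners and effectors, Nlgn2, the neuroligin of inhibitory synapses, was higher in both fits (0.26, SE 0.10 and 0.28, SE 0.08), and Axin1, a scaffold of the Wnt pathway, with the covariate (0.16, SE 0.07). Among 7 genes of shedding and gamma-secretase cleavage, Psen2, a catalytic subunit, was higher with the covariate (0.14, SE 0.06). Of 12 protocadherins outside the clusters 11 were tested, and Pcdh9 (-0.25, SE 0.07) and Pcdh15 (-0.31, SE 0.13) were lower with the covariate. These are unadjusted calls, and 11.5% of all genes reached that p in the same fit.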

How the data were processed

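RNA was measured in bulk ACC of 12 control and 10 stimulated mice. Per the labels and the study's methods, cDNA was made from 5 ng of total RNA, and 50-base single reads were trimmed with cutadapt 1.10, aligned to mm10 with STAR 2.5.3a and counted per gene from uniquely aligned reads with HTSeq 0.6.1p1, all versions as in the submitters' processing notes. How HTSeq treated overlaps and strand is not given in the sources used here. The authors deposited whole-number counts per mouse, which were the only values tested, and the same counts divided by size factors, a signal that was not used. Columns with the authors' own fold changes and p-values, made with DESeq2 1.22.1 with batch and RNA integrity as covariates, were not used.

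The deposited counts went into edgeR 4.0.16 (R 4.3.3) with library sizes from all counted reads, TMM normalization, glmQLFit and glmQLFTest and the group as sole term. The 17524 genes that reached a minimum of 10 counts in 10 or more mice were tested, and p-values were adjusted by Benjamini-Hochberg over that whole set. Standard errors are the log2 fold change over the square root of F, and log2 CPM used a prior count of 2. The series of library numbers was tested with group as the other term. Unshared exonic bases and coordinates come from GENCODE M21 on GRCm38, where 37772 of 37786 identifiers were found. Alternatives used DESeq2 1.42.0, limma 3.58.1, other count minimums, a replicate block, the series as a covariate or alone, and no controls 9 and 11. The fit was also run on simulated counts, from which no conclusion is drawn here. Named members were the C-type genes; in each cluster the highest and lowest level per length, the 3 smallest p and the largest difference between series; and members with an unadjusted p under 0.05 in either fit or for the interaction; from the lists, genes at that p. Pcdhb15, Pcdhb13, Pcdha1, Pcdha12, Pcdhga2 and Pcdhga11 were named after their values were seen. The members and lists were chosen with earlier results of these data known. No sequences are printed. Over 231 pairs of libraries no pair agreed within sampling noise (smallest mean chi-square per gene 10.0).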

Additional observations from a re-analysis of the deposited data

How the results depend on the processing

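Of 227 values of the 19 named members under 12 alternatives, 189 kept their direction and their side of an unadjusted p of 0.05, and no adjusted p of a member passed under any of them. Of all genes, 3 passed adjustment with DESeq2's Wald test and 33 with that test and the series as a covariate. With the covariate and without controls 9 and 11, 1 gene passed, and under the other alternatives 0 did. The last 2 alternatives below were chosen after seeing the data, and the cause of the changes was not tested unless stated. The count of members at an unadjusted p under 0.05, 0 with group only, was 2 with limma voom (beside 10.6% of all genes), 1 (Pcdhb8) with at least 10 counts in every mouse (3.02%), 4 with the series of libraries as a covariate (11.5%), 2 in the earlier libraries alone (5.56%), 4 with DESeq2's Wald test and the covariate (12.5%), and 1 with the covariate and without controls 9 and 11 (7.73%). The count of members with a negative estimate, 16 with group only, was 5 with voom, 32 with the covariate, 29 in the earlier and 27 in the later libraries alone, 9 without controls 9 and 11, 32 with DESeq2 and the covariate and 36 with the covariate and without controls 9 and 11. DESeq2 size factors, DESeq2's Wald test with group only and no count minimum gave 0 and 16, as in the edgeR fit.

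Directions of named members reversed in log2 fold change as follows. With the covariate, Pcdha3 gave -0.094 and Pcdhga3 -0.107, and in DESeq2 with the covariate -0.0943 and -0.109. With at least 10 counts in every mouse Pcdha3 gave -0.012. In the earlier libraries alone Pcdha6 gave -0.032, Pcdhac1 -0.042, Pcdhgc5 -0.045, Pcdha3 -0.55, Pcdhga3 -0.60 and Pcdhb2 0.23. In the later libraries alone Pcdhb9 gave -0.013 and Pcdhgb8 -0.28. With voom Pcdhb2 gave 0.0033 and Pcdhgc3 0.091. With the covariate and without controls 9 and 11, Pcdhgc5 gave -0.021, Pcdhac1 -0.026, Pcdhgb8 -0.032, Pcdha3 -0.18 and Pcdhga3 -0.24. Without controls 9 and 11 alone, Pcdhgc3 gave 0.043.

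With the replicate number as a block, 2 members had an unadjusted p under 0.05 (Pcdhga7 and the tested row named Pcdha11, both higher), beside 7.37% of all genes, and 9 estimates were negative; Pcdha3 gave -0.051, Pcdhgc3 0.040 and Pcdhb2 0.16. Same-numbered mice are different animals, and 8 of 10 pairs deviated together (r over 0.1) but 3 of 10 once the series means were removed, so the numbers do not pair the mice. The count of members that differed between the series, 43, stayed between 34 (controls alone) and 46 (voom), and 0 members differed between the series in the effect of stimulation under either scaling. In the earlier libraries alone the ratio of the stimulated to the control mean of the summed CPM was 0.959 for gamma and 0.971 for the C-type members, in place of 1.07 and 1.11, a shift larger than the relative SD of controls within a series (0.107 and 0.137); the other ratios moved by less than that SD. Depth limits the rarest members: Pcdha8 had 5 to 65 counts per mouse. Dixon's criterion found no single extreme mouse in 44 groups of values. For summed CPM these were each group within each series, and all stimulated mice. For CPM of the named members they were the stimulated mice of both series together, so control values of named members were not examined. The criterion also misses a pair that stands out together, as controls 9 and 11 did in oligodendrocyte markers, which were not among those values.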
